A study of Mus musculus with 4 samples.

Results

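Granule neurons of the dentate gyrus were followed here through 8 genes enriched in them: Npnt, C1ql2, Dsp, Pdzd2, Glis3, Calb1, Dock10 and Maml2. They were taken by symbol from the deposited table of 15713 genes, in which each had 1 row, and all 8 were tested. Its 4 RNA-seq libraries were made from hippocampi of 11 to 12 week old mice of the inbred strain C57BL/6. The 2 control libraries came from mice labelled untreated, and the 2 ATO libraries from mice given ATO at 5000 ppb as a developmental exposure. ATO is not spelled out in the labels, while the series title names arsenic and offspring. The labels do not say when the exposure began or ended or by what route, nor whether replicates were separate animals or litters, and the p-values thus reflect only how far these libraries differ, which may be technical.

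Granule neurons are the principal cells of the dentate gyrus. They receive the main cortical input to the hippocampus and send mossy fibre axons to CA3 pyramidal neurons, and new ones are born in the adult mouse. Their marker genes have unrelated roles: secreted and matrix proteins, a junction protein, a calcium buffer, and regulators of transcription and of the cytoskeleton. In RNA from whole hippocampus, a change in the number of granule neurons, in the tissue taken, and in RNA per cell cannot be told apart.

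The members span 7 chromosomes and very different gene lengths. Positions are in GRCm38 from GENCODE vM21, which gives all 8 as protein-coding genes. The secreted and matrix genes are Npnt (ENSMUSG00000040998, chr3:132881745-132950291, minus strand) and C1ql2 (ENSMUSG00000036907, chr1:120340582-120343174, plus strand). Dsp (ENSMUSG00000054889, chr13:38151294-38198577, plus strand) encodes the desmosomal protein desmoplakin, and Pdzd2 (ENSMUSG00000022197, chr15:12359711-12739924, minus strand) a protein with several PDZ domains. The calcium buffer calbindin comes from Calb1 (ENSMUSG00000028222, chr4:15881264-15908064, plus strand). Dock10 (ENSMUSG00000038608, chr1:80501073-80758527, minus strand) encodes an activator of small GTPases of the cytoskeleton. Glis3 (ENSMUSG00000052942, chr19:28258851-28680077, minus strand) encodes a zinc finger transcription factor, and Maml2 (ENSMUSG00000031925, chr9:13297957-13709388, plus strand) a coactivator of Notch signalling. C1ql2 spans 2.59 kb, whereas Glis3 spans 421 kb and Maml2 411 kb. Exons of other annotated genes overlap those of Dsp and Maml2, but neither of those other genes is in the table.

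Promoter sequence was looked up because 4 members, Npnt, C1ql2, Dsp and Dock10, had both ATO libraries above both controls, as 24.8% of all genes did. RefSeq windows on GRCm38.p6, from 250 bases before to 50 after a start, were matched for 7 of the 8 members (10 windows). The first window of each of these 4 genes is printed 5′ to 3′ on the strand of the gene, with capitals marking the GC box GGGCGG and the E-box CAGATG on either strand. They lie at chr3:132950242-132950541 (Npnt, minus strand), chr1:120340332-120340631 (C1ql2, plus strand), chr13:38151044-38151343 (Dsp, plus strand) and chr1:80758504-80758803 (Dock10, minus strand).
Npnt: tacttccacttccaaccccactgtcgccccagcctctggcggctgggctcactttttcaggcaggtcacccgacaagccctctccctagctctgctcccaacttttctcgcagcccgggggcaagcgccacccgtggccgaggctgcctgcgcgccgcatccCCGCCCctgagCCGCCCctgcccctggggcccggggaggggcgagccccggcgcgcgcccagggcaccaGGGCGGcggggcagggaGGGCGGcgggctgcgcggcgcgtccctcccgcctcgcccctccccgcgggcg
C1ql2: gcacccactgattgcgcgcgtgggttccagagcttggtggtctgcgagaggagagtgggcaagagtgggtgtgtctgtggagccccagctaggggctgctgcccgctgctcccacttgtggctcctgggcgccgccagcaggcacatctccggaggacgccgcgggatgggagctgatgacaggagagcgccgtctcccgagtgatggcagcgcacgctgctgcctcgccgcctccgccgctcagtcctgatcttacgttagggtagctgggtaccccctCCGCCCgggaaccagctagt
Dsp: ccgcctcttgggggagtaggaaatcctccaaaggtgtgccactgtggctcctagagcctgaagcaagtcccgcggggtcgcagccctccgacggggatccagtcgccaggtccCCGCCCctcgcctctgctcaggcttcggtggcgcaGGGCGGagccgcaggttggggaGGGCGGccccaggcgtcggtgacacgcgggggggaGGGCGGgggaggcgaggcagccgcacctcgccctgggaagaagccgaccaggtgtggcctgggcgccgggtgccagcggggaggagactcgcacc
Dock10: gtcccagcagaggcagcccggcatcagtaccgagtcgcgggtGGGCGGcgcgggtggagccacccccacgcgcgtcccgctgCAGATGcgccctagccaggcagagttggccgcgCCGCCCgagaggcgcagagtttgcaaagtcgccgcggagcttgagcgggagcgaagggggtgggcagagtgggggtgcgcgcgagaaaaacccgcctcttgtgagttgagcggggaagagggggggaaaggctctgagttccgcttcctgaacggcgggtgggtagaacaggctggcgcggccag
These 4 windows are rich in CpG, with 32 CpG in Npnt, 23 in C1ql2, 27 in Dsp and 32 in Dock10, against a median of 7 over all windows. The GC box was in 6 of the 10 member windows and in 35.6% of all 32817 windows. The E-box was in 3 of the 10, 2 of Dock10 and 1 of Maml2, and in 17.2% of all windows. Of the other letters searched on both strands, the RBPJ word TGGGAA was in 2 of the 10 (Maml2 and Dsp, 25.6% of all windows), TGACG in 1 (Npnt, 20.8%), and the TATA word TATAAA (13.6%) and TGACGTCA, which contains TGACG (1.79%), in 0. Pdzd2 and Glis3, whose groups overlapped, also have CpG-rich windows with GC boxes (23 and 32 CpG), so these letters were not particular to the 4 genes whose groups were apart. Both windows of Maml2 (2 and 7) and the second window of Dock10 (5) had no more CpG than the median of 7.

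Per length, the members fell into an abundant pair and a low set. By the authors' deposited FPKM, C1ql2 had the highest level (54.0 and 48.6 in the controls, 65.0 and 59.4 in ATO), followed by Calb1 (36.1 and 33.4, then 36.7 and 35.1). In the control means the order went on with Npnt at 5.76, Dsp at 4.82, Dock10 at 4.58, Maml2 at 2.94, Pdzd2 at 2.56 and Glis3 at 2.34. Npnt lay above Dsp and Dock10 in both controls, while Dsp (4.85 and 4.79) and Dock10 (4.65 and 4.51) lay close together. Maml2, Pdzd2 and Glis3 were not separable, since their control libraries overlapped. Counts behind these values ranged from 227 for Maml2 in control replicate 2 to 3072 for Calb1 in ATO replicate 1.

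The comparison of ATO with control gave 1 call among the 8 members. Npnt rose 1.35-fold. The fitted values of Maml2, Dock10, Dsp, Pdzd2, C1ql2 and Calb1 were also higher in ATO and did not pass. For Calb1 (log2 0.04) the difference was small, and Glis3 was slightly lower (log2 -0.06) and did not pass either. The groups overlapped for Maml2, Pdzd2, Calb1 and Glis3. A gene is called at an adjusted p under 0.05 (edgeR, quasi-likelihood test, Benjamini-Hochberg adjustment over all genes). The background for higher genes was 2.87% (451 of 15713) and for lower genes 0.859% (135 genes), and 0 members fell. With an unadjusted p under 0.05, 5 of 8 members were higher, against 10.6% of all genes, and 0 lower, against 7.55%. The authors' deposited table marked 0 of the 8 as differentially expressed, and 0.974% of all genes. The median log2 fold change was 0.29 over the members and -0.005 over all genes tested. The number of members that passed depended on single libraries: it was 0 without control replicate 2 or without ATO replicate 1, 2 without control replicate 1 and 4 without ATO replicate 2.

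**Figure D1:**
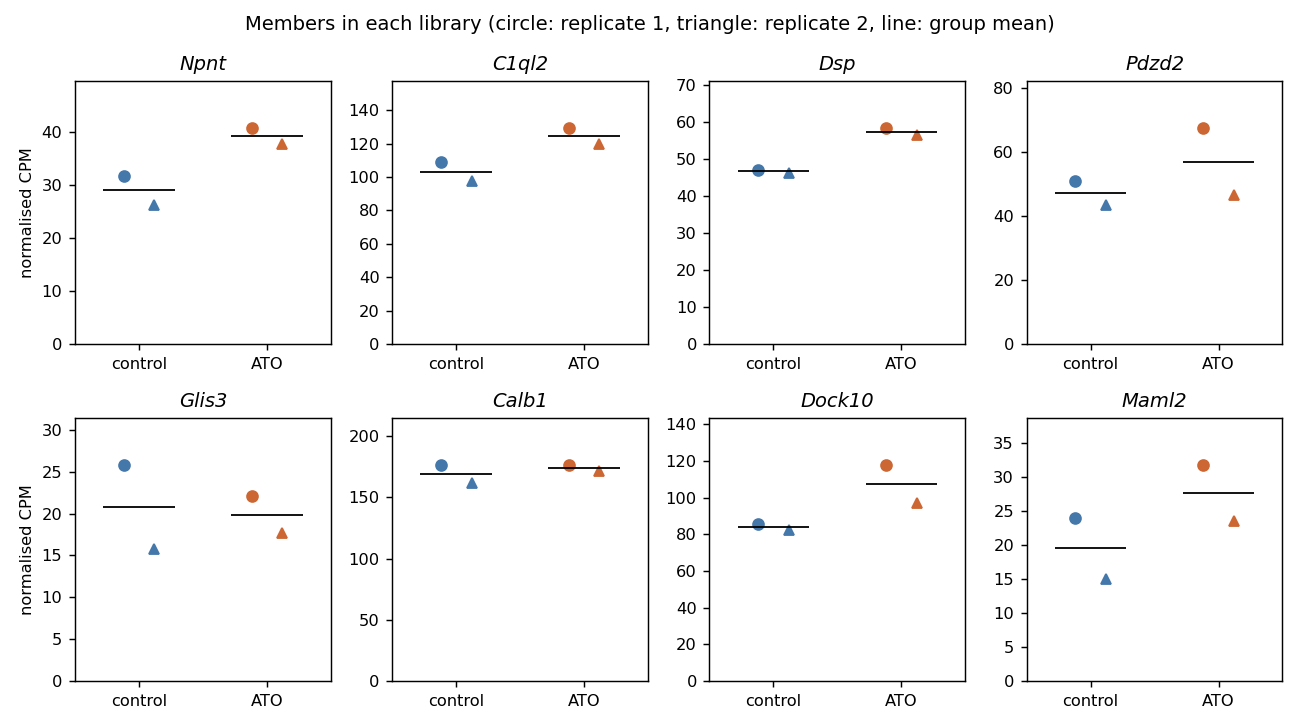
Normalised CPM (depth-scaled counts, linear axes from 0) of the 8 members in each of the 4 libraries, with circles for replicate 1, triangles for replicate 2 and lines for group means of 2 libraries. Both ATO libraries lie above both controls for Npnt, C1ql2, Dsp and Dock10; in all panels and both groups the circle is above the triangle.

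Npnt encodes nephronectin, a secreted matrix protein that binds integrin alpha 8 beta 1. It stood at 31.8 and 26.4 normalised CPM (counts scaled by the depth of the library) in control replicates 1 and 2 and at 40.7 and 37.7 in ATO replicates 1 and 2. The groups did not overlap, and the lower ATO library was 1.18-fold above the higher control. Its log2 fold change was 0.43 ± 0.11 (SE, n = 2 per group) with an adjusted p of 0.0460 in edgeR's quasi-likelihood test. The call rested on single libraries: without control replicate 2 the adjusted p was 0.261, and without ATO replicate 1 it was 0.194. Scaling by library size alone (0.0511) and DESeq2's Wald test (0.130) ended it too, and in the authors' deposited table the adjusted p of Npnt was 0.0507.

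C1ql2 encodes a secreted protein of the C1q family that mossy fibres release at their synapses. Its normalised CPM were 109 and 97.3 in control and 129 and 119.7 in ATO, again with no overlap. The log2 fold change was 0.27 ± 0.08 (SE), and the adjusted p of 0.0904 did not pass. Desmoplakin is the cytoplasmic plaque protein that ties desmosomes to intermediate filaments, and its Dsp transcript had the closest controls of the 8 members. Dsp stood at 47.2 and 46.3 CPM in control and at 58.3 and 56.5 in ATO. Each ATO library was between 1.20-fold and 1.26-fold above each control. The log2 fold change of Dsp was 0.30 ± 0.09 with an adjusted p of 0.0727, above the threshold.

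Dock10 had 85.7 and 82.4 CPM in control and 118 and 96.7 in ATO. ATO replicate 1 stood well above the other 3 libraries, and ATO replicate 2 only 1.13-fold above the higher control. The log2 fold change was 0.35 ± 0.09, with an adjusted p of 0.0517 that missed the threshold. It passed when ATO replicate 2 was left out (adjusted p = 0.00276) and had an adjusted p of 0.567 when ATO replicate 1 was left out.

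Maml2 had the largest fitted difference of the 8 and also one of the widest spreads. Its CPM were 23.9 and 15.03 in control and 31.7 and 23.5 in ATO, so that ATO replicate 2 lay just under control replicate 1. The log2 fold change was 0.51 ± 0.18 with an adjusted p of 0.154. It was 0.88 (adjusted p = 0.0312) without control replicate 1 and 0.20 (0.642) without control replicate 2. Leaving out ATO replicate 2 gave 0.70 (adjusted p = 0.000910) and leaving out ATO replicate 1 gave 0.27 (0.604).

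For Pdzd2, 1 library set the group difference. Its CPM were 51.0 and 43.4 in control, 67.5 in ATO replicate 1 and 46.7 in ATO replicate 2, which fell between the controls. The log2 fold change of 0.28 ± 0.14 (adjusted p = 0.315) became 0.51 (adjusted p = 0.00316) without ATO replicate 2 and -0.015 (0.991) without ATO replicate 1.

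Calb1 and Glis3 showed the smallest group differences. Calb1, a standard marker of mature granule neurons that CA1 pyramidal neurons and interneurons also express, had 176 and 162 CPM in control and 176 and 171 in ATO. With a log2 fold change of 0.04 ± 0.08 (adjusted p = 0.840) its groups overlapped; the sign turned without control replicate 2 (-0.024). Glis3 stood at 25.8 and 15.8 CPM in control and at 22.0 and 17.7 in ATO, both ATO libraries falling between the controls. The fitted log2 difference was -0.06 ± 0.18 (adjusted p = 0.904). Its sign was not fixed, at 0.34 without control replicate 1, 0.09 without ATO replicate 2 and 0.015 when counts were scaled to pan-neuronal genes.

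**Figure D2:**
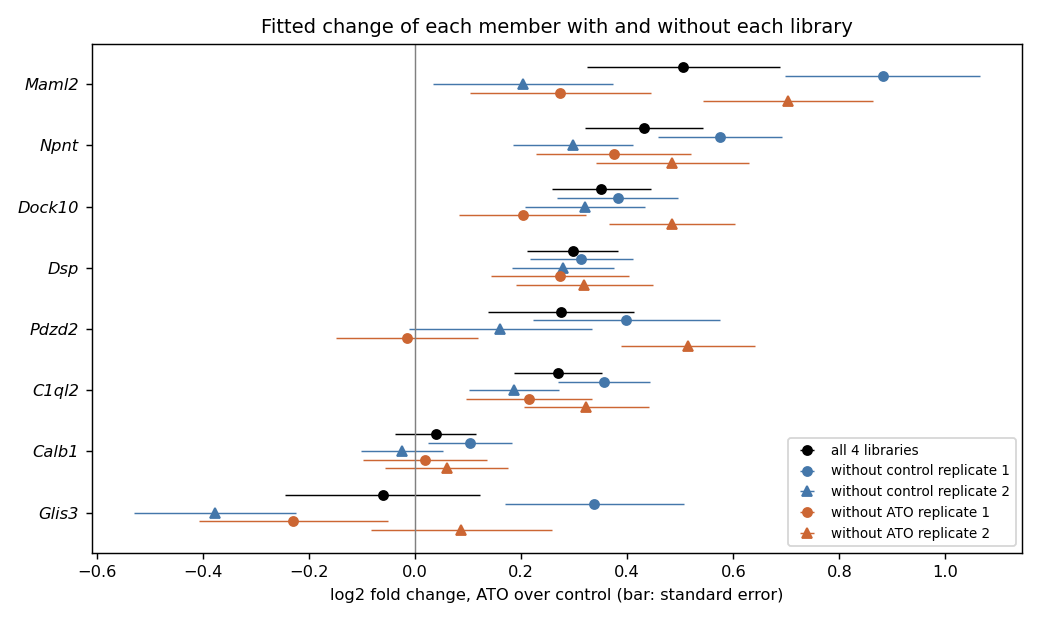
Fitted log2 fold change of ATO over control (points) with its standard error (bars) for each member, from all 4 libraries (black) and with 1 library left out (blue: a control, orange: an ATO library). Dsp stays between 0.27 and 0.32, while Pdzd2, Glis3 and Calb1 cross 0.

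Libraries of a group were also compared with each other. In both groups the library labelled replicate 1 was above replicate 2 for all 8 members, a pattern that 27.1% of all genes showed. Ratios were taken after depth scaling, with exact binomial 95% intervals that cover counting error only. Between the controls, replicate 1 was higher beyond counting error for 6 members (13.9% of all genes) and between the ATO libraries for 5 (11.7%). Glis3, C1ql2, Pdzd2 and Maml2 were so in both groups, as were 3.44% of all genes.

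The size of these gaps differed among the members. Glis3 was 1.64-fold higher (interval 1.39 to 1.93) in control replicate 1 than in control replicate 2 and 1.25-fold (1.07 to 1.45) in ATO. For Maml2 the ratios were 1.59 (1.34 to 1.89) in control and 1.35 (1.18 to 1.54) in ATO. Both control gaps were wide for these libraries: 95.5% of all genes had a smaller absolute log2 gap than Glis3 and 94.9% a smaller one than Maml2. Pdzd2 differed by 1.17-fold (1.06 to 1.31) in control and by 1.44-fold (1.32 to 1.58) in ATO. Dsp differed by 1.02-fold (0.917 to 1.13) and 1.03-fold (0.943 to 1.13), within counting error in both groups. For 4 members, Pdzd2, Glis3, Calb1 and Maml2, the wider gap inside a group exceeded the gap between group means, as it did for 64.9% of all genes.

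**Figure D3:**
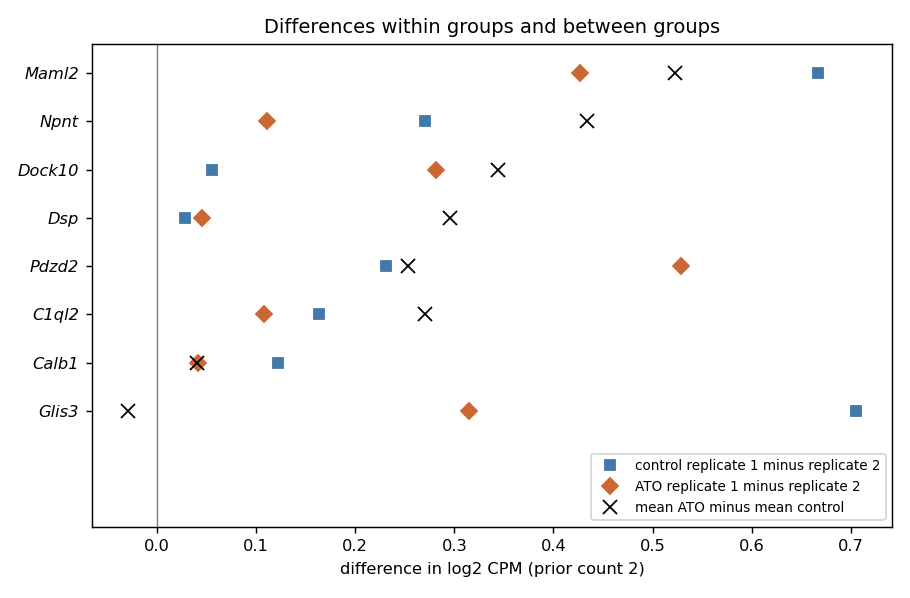
Difference in log2 CPM for each member between the 2 controls (squares), between the 2 ATO libraries (diamonds) and between group means (crosses). All squares and diamonds are above 0, up to 0.71 for Glis3 in control, and the cross lies beyond both for Npnt, Dock10, Dsp and C1ql2.

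Library against library, the members gave different counts for each pairing. ATO replicate 1 was above control replicate 2 for all 8 (median log2 difference 0.50) and above control replicate 1 for 6 of 8 (0.33). ATO replicate 2 was above control replicate 2 for all 8 (0.26) but above control replicate 1 for only 4 of 8 (0.06). About equal shares of all genes were higher in each pairing, from 49.7% to 51.2%. Both ATO libraries lay above both controls for 4 of 8 members, against 24.8% of all genes, and below both for 0, against 23.4%.

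Gene span, looked at after the gaps were seen, separated the members in ATO. The 4 genes spanning over 200 kb (Pdzd2, Glis3, Dock10 and Maml2) had log2 gaps of 0.28 to 0.53 between the ATO libraries, and the 4 under 100 kb (Npnt, C1ql2, Dsp and Calb1) 0.04 to 0.11. In control the ranges overlapped, at 0.06 to 0.71 and 0.03 to 0.27. Over all genes the corresponding medians were small. Genes of 200 to 400 kb (600 genes) had a median gap of 0.05 in control and 0.02 in ATO. Above 400 kb (325 genes) the medians were 0.04 and 0.03, and under 10 kb -0.02 and -0.02. The share of genes with replicate 1 above replicate 2 in both groups was 23.0% under 10 kb. It was 38.0% at 200 to 400 kb and 36.9% above 400 kb.

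A second list held 20 other granule neuron genes. All 20 were counted in every library, with at least 131 counts. Trpc6, a cation channel gene, rose 1.58-fold and was the only gene of the 20 to pass, and 0 fell. Over all genes 2.87% rose and 0.859% fell. Trpc6 had 18.4 and 23.0 CPM in control and 32.9 and 32.7 in ATO, a log2 fold change of 0.66 ± 0.12 with an adjusted p of 0.00673, and it passed in all 12 alternative settings (adjusted p from 0.000289 to 0.0445). The fit with no filter, 1 of these 12, repeats the main fit because the filter removed 0 genes. Unlike the 8 members, Trpc6 was lower in control replicate 1 than in control replicate 2. Neurod1, a transcription factor gene of granule neuron development, had 31.5 and 30.3 CPM in control and 42.0 and 37.6 in ATO (log2 0.37 ± 0.10, adjusted p = 0.0606). Lct, the lactase gene, had 44.3 and 42.9 CPM in control and 58.1 and 50.6 in ATO (0.32 ± 0.09, adjusted p = 0.0817). Over the 20 the median log2 fold change was 0.19, both ATO libraries were above both controls for 9 and below for 2, and replicate 1 was above replicate 2 in both groups for 13.

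Neighbouring cell types of the hippocampus did not share one direction. Of 12 CA1 pyramidal markers 4 fell, among them Wfs1, Pex5l and Dcn, and 0 rose, with a median log2 fold change of -0.38. Wfs1, the gene of the endoplasmic reticulum protein wolframin, went from 92.6 and 105.6 CPM in control to 65.0 and 83.4 in ATO (log2 -0.42 ± 0.11, adjusted p = 0.0463). Wfs1 passed in 6 of 12 alternative settings, counting the no-filter fit that repeats the main fit. It did not pass without control replicate 1 (adjusted p = 0.0522), control replicate 2 (0.263) or ATO replicate 1 (0.411), nor with library size alone (0.0562), pan-neuronal scaling (0.0961) or DESeq2 (0.0524). Without control replicate 2, 0 CA1 markers passed, and without control replicate 1 or ATO replicate 1, 1 fell; without ATO replicate 2, 7 fell, and without ATO replicate 1, 1 rose. With pan-neuronal scaling 1 fell, and 2 fell when scaled by library size alone or tested with DESeq2. Of 14 CA3 and CA2 markers and 6 mossy cell markers 0 passed, with medians of 0.15 and 0.46. The mossy cell median rests on genes with few counts, down to 16. The better counted mossy cell markers Ajap1 and Calb2 stood at 0.20 and 0.01. Of 10 interneuron markers 1 fell (Npy) and 0 rose, with a median of -0.25. Both ATO libraries were below both controls for 9 of these 10, against 23.4% of all genes. With library size alone, pan-neuronal scaling or DESeq2, 0 interneuron markers passed. Their median was -0.30 without control replicate 1 and -0.17 without control replicate 2. It was -0.15 without ATO replicate 1 and -0.28 without ATO replicate 2. Of 16 pan-neuronal genes 0 passed, with a median of -0.06. Among 11 genes of immature granule neurons Sox11, a transcription factor gene, rose (log2 0.50, adjusted p = 0.0237), and the median was 0.00. It did not pass when any 1 of the 4 libraries was left out or in DESeq2's Wald test (adjusted p up to 0.0793).

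The dentate and CA1 lists were then read library by library. Relative to each gene's mean over the 4 libraries, the median member stood at log2 -0.03 and -0.23 in control replicates 1 and 2 and at 0.23 and 0.04 in ATO replicates 1 and 2. The second dentate list stood at 0.02 and -0.18 in control and at 0.18 and 0.005 in ATO. The median CA1 marker stood at 0.19 and 0.17 in control and at -0.30 and 0.06 in ATO. The member median minus the CA1 median was thus -0.22 and -0.40 in control and 0.53 and -0.02 in ATO. Both ATO libraries stood above both controls in this difference, and ATO replicate 1 stood far above ATO replicate 2. As each gene was centred on its own mean, the sign of the difference does not compare levels of the lists. The difference between the lists was not tested.

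**Figure D4:**
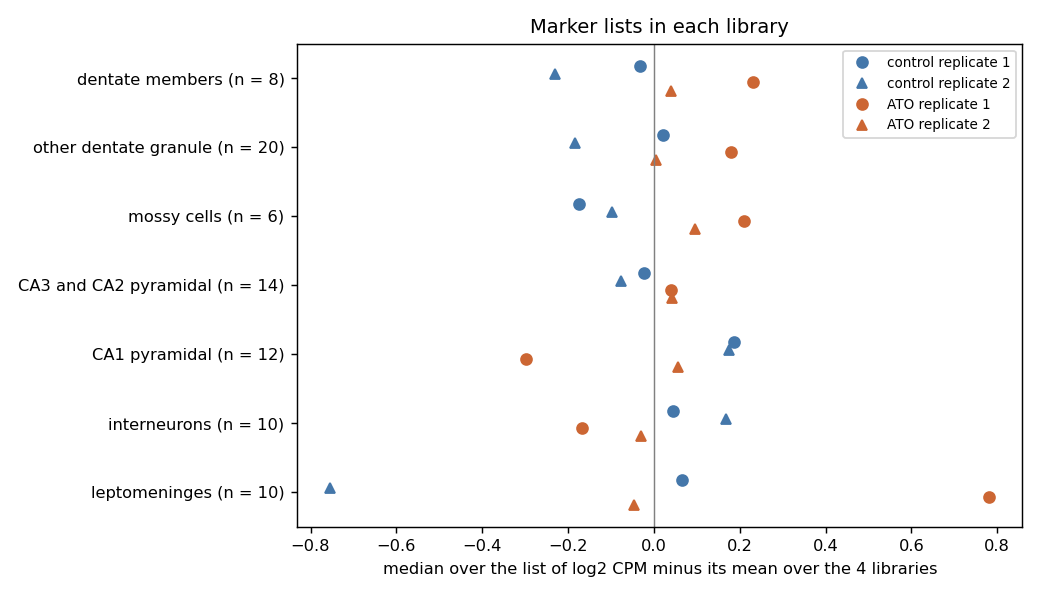
Median over each marker list of log2 CPM minus the gene's mean over the 4 libraries, for controls (blue) and ATO (orange), circles for replicate 1 and triangles for replicate 2. The 8 members run from -0.23 in control replicate 2 to 0.23 in ATO replicate 1, and the CA1 list from 0.19 in control replicate 1 to -0.30 in ATO replicate 1.

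Markers of other tissues differed in how they followed these libraries. Of 10 leptomeningeal markers, 9 were higher in replicate 1 than in replicate 2 in both groups, against 27.1% of all genes. Their median stood at 0.07 and -0.75 in control and at 0.78 and -0.05 in ATO. This was the same order of libraries within each group as for the members. Their summed level was 308 to 448 CPM in control and 370 to 693 in ATO, with at least 11 counts each. Most of that sum was Ptgds, at 334 and 213 CPM in control and 556 and 278 in ATO. Of these markers 1 rose (Igf2) and 1 fell (Dcn, which is also on the CA1 list). Without control replicate 2, 0 rose and 0 fell, and 4 rose without control replicate 1 and 7 without ATO replicate 2. All 15 choroid plexus markers rose, from a summed 140 to 212 CPM in control to 3309 to 4154 in ATO, with no marker at 0 in any library. Unlike the members, 0 of these 15 had replicate 1 above replicate 2 in both groups. Their median log2 gap, replicate 1 minus replicate 2, was -0.69 in control and -0.31 in ATO. The control gap rests partly on low counts, down to 1. Calml4, whose gap is the median, had 9 and 16 counts in control and Folr1 had 1 and 14, while Ttr had 301 and 933. Totals of 14832214 to 17251032 counts and mitochondrial shares of 5.87% to 7.45% describe the 4 libraries. The part of these tissues, of depth and of RNA quality in the values of the dentate genes was not tested.

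Partners of the member proteins were described from a list of 27 genes, of which 25 were in the table. Of these 2 rose, 0 fell, and the median log2 fold change was 0.01; without control replicate 2, 0 passed. The list holds 6 genes of desmosomes and related junctions, a grouping within it that was made after the values were seen. Of the 5 that were tested, Pkp2 and Perp rose and the other 3 did not pass. Pkp2, the plakophilin 2 gene, had 32.7 and 35.6 CPM in control and 43.3 and 49.4 in ATO (log2 0.44 ± 0.10, adjusted p = 0.0284), and Perp, a gene of a desmosomal membrane protein, had 4.21 and 2.72 in control and 6.66 and 8.49 in ATO (1.13 ± 0.25, adjusted p = 0.0241). Pkp2 no longer passed once control replicate 1 (adjusted p = 0.101), control replicate 2 (0.0729) or ATO replicate 2 (0.176) was left out, or when DESeq2's Wald test was used (0.0687). Perp no longer passed in the fits that omitted control replicate 2 (0.172) or ATO replicate 2 (0.0704). Jup, the plakoglobin gene, Pkp4 and the desmoglein gene Dsg2 had log2 fold changes of -0.02, 0.01 and 0.44 ± 0.31 (adjusted p = 0.497 for Dsg2).

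For C1ql2 the partners include its relative C1ql3, with which it acts at mossy fibre synapses, and the receptors there. C1ql3 had 64.4 and 64.6 CPM in control and 88.0 and 74.4 in ATO, with no overlap and an adjusted p of 0.0585 (log2 0.33 ± 0.09). Adgrb3, an adhesion receptor gene for C1ql proteins, was at 98.1 and 99.3 CPM in control and at 79.2 and 85.0 in ATO, the opposite direction, and did not pass (-0.27 ± 0.08, adjusted p = 0.0799). The presynaptic Nrxn3 and the kainate receptor genes Grik2 and Grik4 had log2 fold changes of -0.10, -0.02 and -0.14, and 0 of the 3 passed.

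The integrin genes for the nephronectin receptor did not pass. Itga8 had 35.4 and 27.0 CPM in control and 27.7 and 22.6 in ATO (log2 -0.31 ± 0.14, adjusted p = 0.249), overlapping groups in which replicate 1 was again the higher library. Itgb1 had a log2 fold change of 0.21 ± 0.08 (adjusted p = 0.213). Around Maml2, the Notch pathway DNA-binding factor gene Rbpj had 22.9 and 21.0 CPM in control and 28.6 and 24.6 in ATO (0.28 ± 0.12, adjusted p = 0.226), and Notch1, Notch2, Maml1 and Maml3 lay between -0.06 and 0.33, none passing. Dock11, a close relative of Dock10, had 14.2 and 14.6 CPM in control and 21.6 and 17.9 in ATO (0.45 ± 0.14, adjusted p = 0.0846), and the GTPase genes Cdc42 and Rac1 had log2 fold changes of 0.02 and 0.03.

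The genes whose profile over the 4 libraries was nearest to the median member profile, by Euclidean distance of centred log2 CPM among 11516 genes with a mean of at least 5 CPM, were Kctd5, Zbtb5, Kbtbd11, Hus1 and Zscan29 (distances 0.01 to 0.02). Kctd5, the closest, had 27.1 and 23.6 CPM in control and 32.7 and 28.8 in ATO. Its log2 fold change was 0.28 ± 0.12 with an adjusted p of 0.216, and none of the 5 passed the threshold.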

How the data were processed

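Messenger RNA was measured in 4 hippocampus libraries, 2 per group, and the authors deposited 1 table of them. Per the file headers its values are whole-number counts and FPKM per gene and library. The authors also deposited their log2 fold change of ATO over control, a p-value, an adjusted p-value and a yes or no mark of differential expression, per the file headers. The submitters' processing notes name the build GRCm38 and these tools: R 4.1.0 with limma 3.47.15, HTSeq 0.6.1, HISAT2 2.0.1, FastQC 0.10.1 and cutadapt 1.9.1. Their settings and the use of strand in counting are not stated, so overlapping genes and near-identical copies may share reads. FPKM served only to order genes by level.

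The deposited counts of all 15713 genes went into the quasi-likelihood test of edgeR 4.0.16 (R 4.3.3) without covariates. TMM factors were 0.994 to 1.01, and filterByExpr removed 0 genes. The SE is the absolute log2 fold change over the square root of F. As F uses a spread estimated partly across genes, the SE is not the spread of a gene's own replicates alone. Log2 CPM used a prior count of 2. Alternatives were other scalings and filters, limma-voom (limma 3.58.1), DESeq2 1.42.0, a replicate block and each library left out. The 8 members and the 17 gene lists were chosen with earlier results of these data known. Named were all members, list genes that passed with up to 2 further genes of smallest p, partner genes, and the 5 genes nearest in profile; some genes that this rule takes are not reported here.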

Additional observations from a re-analysis of the deposited data

How the results depend on the processing

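Of the 8 members 1 passed in edgeR's test of all 4 libraries; with library size as the sole scaling 0 passed (2.62% of all genes were higher), as in DESeq2's Wald test (1.60%), while 5 had an unadjusted p under 0.05 in the edgeR fit. With pan-neuronal scaling (3.57%) and with a mean of at least 1 CPM (3.03%) 2 passed, and 0 to 4 when 1 library was left out (1.15% to 2.82%). The member median stayed between 0.20 and 0.40 in all 12 alternatives, of which the no-filter fit repeats the main fit. Npnt did not pass by library size (log2 fold change 0.44) or DESeq2 (0.43); Dsp passed with pan-neuronal scaling (0.37) and Dock10 with the 1 CPM filter (0.35). Glis3 changed sign with pan-neuronal scaling (0.015), which gave 561 genes higher and 42 lower in place of 451 and 135. Leaving out a library turned Glis3 (0.34 without control replicate 1, 0.09 without ATO replicate 2), Calb1 (-0.024 without control replicate 2) and Pdzd2 (-0.015 without ATO replicate 1); the cause was not tested. Ranges over these 4 fits were 0.30 to 0.58 for Npnt, 0.19 to 0.36 for C1ql2, 0.27 to 0.32 for Dsp, -0.015 to 0.51 for Pdzd2, -0.38 to 0.34 for Glis3, -0.024 to 0.10 for Calb1, 0.20 to 0.48 for Dock10 and 0.20 to 0.88 for Maml2. Over all genes they gave 180 to 443 higher and 42 to 168 lower, and DESeq2 252 and 64. A lone library left in a group is assumed there to vary like the other group.

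The labels share replicate numbers between groups without saying that they pair animals, and with 2 pairs the correlation of same-numbered deviations across genes was 0.09. The replicate block gave 890 genes higher (5.66%) and 476 lower, and 5 members passed, C1ql2 (0.27, adjusted p = 0.0111), Dsp (0.30, 0.0257), Dock10 (0.35, 0.00345) and Maml2 (0.52, 0.00479) beside Npnt (0.43, 0.00532). The block takes out the gap of replicate 1 over replicate 2 that all 8 members shared. It leaves little freedom in 4 libraries, so these p-values rest largely on a spread estimated across genes. The p-values of the main fit rest partly on such a spread too.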
